A study of Mus musculus with 19 samples.

Results

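The endothelial genes described here were 10 genes chosen by name, Pecam1, Cdh5, Kdr, Tek, Tie1, Eng, Vwf, Sox17, Sox18 and Erg, out of 40698 genes in the joined count table and 55414 genes in the tables of single libraries. All 10 were found by their gene symbol, and all 10 passed the filter on low counts. They were measured by bulk RNA-sequencing of abdominal aortas from male Apoe-/- mice on a C57Bl/6J background, which lack apolipoprotein E. All mice received angiotensin II (AngII) from a subcutaneous osmotic pump from the age of 8 to 10 weeks, so that every group, the control included, was in the AngII model of abdominal aortic aneurysm. The non-irradiated control group had 5 mice, the Day-3 group (D-3 IR) had 7 mice given total-body X-rays at 1 Gy 3 days before the pump, and the Day+1 group (D+1 IR) had 7 mice given the same dose 1 day after it. No aorta without AngII was among the libraries, the irradiated mice were exposed in sets of 3, and the day on which the sequenced aortas were taken was not given in the sources used here.

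Endothelial cells form the inner lining of every vessel, from the aorta itself to the capillaries of its outer coat and of the fat around it. They are joined by adherens junctions, receive growth and survival signals through receptor kinases, store von Willebrand factor for release, and keep their identity through a small set of transcription factors. In the AngII model the endothelium is among the first cells exposed to the raised pressure and to the peptide, and it is also regarded as a radiosensitive layer of the vessel wall. The comparisons asked whether the transcripts of these genes differed between irradiated and non-irradiated aortas and between the timings of irradiation. In bulk tissue, fewer endothelial cells and less RNA of a gene per cell cannot be told apart.

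Reference promoter sequences were at hand for 5 of the 10 genes, Kdr, Tek, Tie1, Eng and Erg. Those of Kdr, Tek and Eng and of 2 of the 3 annotated start sites of Erg are shown as examples. The windows of Tie1 and of the remaining start site of Erg are not printed. Each is the 150 bases before the start site in RefSeq on GRCm38.p6, read 5′ to 3′ on the strand of the gene, and capitals mark matches on either strand to an ETS core (CAGGAA), a SOX core (ACAAT) or a GATA core (AGATAA).
Kdr, chr5:75978456-75978605, minus strand: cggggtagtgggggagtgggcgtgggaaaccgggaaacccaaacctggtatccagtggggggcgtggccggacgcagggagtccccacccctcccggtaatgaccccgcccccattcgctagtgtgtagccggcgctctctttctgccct
Tek, chr4:94739139-94739288, plus strand: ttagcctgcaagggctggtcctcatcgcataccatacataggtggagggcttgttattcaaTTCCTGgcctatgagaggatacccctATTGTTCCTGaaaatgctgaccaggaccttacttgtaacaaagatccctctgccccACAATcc
Eng, chr2:32646445-32646594, plus strand: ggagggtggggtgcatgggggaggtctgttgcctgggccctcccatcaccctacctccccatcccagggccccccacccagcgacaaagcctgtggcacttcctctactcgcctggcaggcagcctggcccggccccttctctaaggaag
Erg, start 1, chr16:95586594-95586743, minus strand: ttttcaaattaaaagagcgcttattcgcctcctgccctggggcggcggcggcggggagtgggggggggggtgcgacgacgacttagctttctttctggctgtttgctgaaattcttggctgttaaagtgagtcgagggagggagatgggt
Erg, start 3, chr16:95459349-95459498, minus strand: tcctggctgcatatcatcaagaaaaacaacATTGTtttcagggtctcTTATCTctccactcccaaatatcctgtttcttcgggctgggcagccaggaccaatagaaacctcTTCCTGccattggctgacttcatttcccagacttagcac
The Tek window held 2 ETS and 2 SOX matches, of which 1 ETS and 1 SOX match shared a base in the longest run of capitals. The third start site of Erg had 1 match to each of the 3 cores. The windows of Kdr, Tie1, Eng and the other start sites of Erg held no match to these exact letters. Shorter or other forms of the cores were not searched, so they can be present in any of the windows. Among 32851 mouse promoter windows of the same length, 16.6% held these ETS letters, 17.4% the SOX letters, 5.65% the GATA letters and 34.4% any of them. A match is thus a description of the window and no evidence of binding.

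On the GRCm38 assembly with GENCODE M21, the 10 genes lie on 8 different chromosomes, with Tek and Tie1 both on chromosome 4 and Eng and Sox18 both on chromosome 2. Counts were not split by strand, so the reads of 2 genes lying across each other on opposite strands cannot be told apart. Sox17 (chr1:4490931-4497354) shares 804 exon bases with Gm37587 on the other strand, and Eng (chr2:32646595-32682669) shares 61 exon bases with Fpgs. Cdh5 (chr8:104101625-104144511) overlaps Gm29682 without a shared exon base, and Erg (chr16:95359169-95586593) overlaps no other annotated gene.

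The libraries held 25839001 to 97083681 counts in genes (median 39641963), of which the 10 genes together took 0.0580% to 0.190%. The lowest count of any of them in a library was 234 (Sox17 in D-3 IR 13) and the highest 29421, so that the spread between mice, not the counting error, set the precision. D+1 IR libraries 1, 2 and 3 carried another number series in their deposited files than all other libraries. Part of the results are also given without them or with their mean apart. Values are CPM, counts scaled to a common library total after TMM normalization, with the number after each group name giving the library.

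Set per kilobase of exon, which allows levels to be compared between genes, Eng and Pecam1 stood highest. The mean over 19 libraries was 51.8 ± 13.7 CPM per kb (SD) for Eng and 44.3 ± 12.8 CPM per kb for Pecam1. Cdh5 followed at 38.5 ± 18.4, Sox18 at 29.6 ± 12.5, Tie1 at 20.1 ± 7.54 and Erg at 18.1 ± 7.19 CPM per kb. Vwf at 11.7 ± 5.30, Kdr at 11.2 ± 6.57 and Tek at 10.8 ± 4.24 CPM per kb were close to each other, and Sox17 was lowest at 3.39 ± 1.25 CPM per kb. Neighbours in this order differed by less than 1 SD in 8 of 9 cases, the exception being Tek over Sox17, which held in 19 of 19 libraries. None of these genes was at 0 in any library, which cannot test the label of the tissue, since endothelial cells line every vessel.

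Pecam1 (PECAM-1, CD31) and Cdh5 (VE-cadherin) encode adhesion molecules of the contacts between endothelial cells. Pecam1 was at 230.0, 239.9, 118, 293 and 204 CPM in control libraries 4, 5, 6, 8 and 9. It ran from 212 to 369 CPM (median 244) in D-3 IR and from 210.3 to 431 CPM (median 286) in D+1 IR. Control 6 was the lowest and D+1 IR 2 the highest of all libraries, and the 3 groups overlapped. The group means were 217 ± 64.2, 286 ± 71.2 and 308 ± 83.6 CPM (SD, n = 5, 7 and 7). The log2 fold change against control was 0.40 (SE 0.24, unadjusted p = 0.114) in D-3 IR and 0.51 (SE 0.24, unadjusted p = 0.0479, adjusted p = 0.644) in D+1 IR by edgeR's quasi-likelihood test.

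Cdh5 was at 200.4, 155, 56.0, 85.5 and 103 CPM in the same 5 control libraries. It ran from 108 to 247 CPM (median 154) in D-3 IR and from 107 to 380.3 CPM (median 154) in D+1 IR. All 7 libraries of each irradiated group lay above the control median of 103 CPM, but the 2 highest controls lay above the medians of both irradiated groups. The log2 fold change was 0.44 (SE 0.36) in D-3 IR and 0.67 (SE 0.36, adjusted p = 0.644, edgeR) in D+1 IR against control. D+1 IR libraries 1, 2 and 3 averaged 271 ± 113 CPM and the other 4 D+1 IR libraries 130.4 ± 24.6 CPM, libraries 1 and 2 being the highest of the group.

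Kdr (VEGFR2), the main signalling receptor for vascular endothelial growth factor, was the most variable of the 10 genes, with a biological coefficient of variation of 0.585 beside a median of 0.406 over all genes. Its controls were at 156, 124, 27.1, 31.0 and 35.1 CPM. The D-3 IR libraries ran from 61.4 to 147 CPM (median 94.7) and the D+1 IR libraries up to 245 CPM (median 115), the lowest of them being above 35.1 CPM. The control group was split, with libraries 4 and 5 above the medians of both irradiated groups and libraries 6, 8 and 9 below every irradiated library. Against control, the log2 fold change was 0.48 (SE 0.50) in D-3 IR and 0.64 (SE 0.51, adjusted p = 0.698, edgeR) in D+1 IR. Without D+1 IR libraries 1, 2 and 3, which were at 186, 245 and 119 CPM, the second value turned to -0.17, and D-3 IR stood above D+1 IR by 0.65 on the log2 scale (adjusted p = 0.979).

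Tek (TIE2) is the receptor for the angiopoietins and Tie1 its partner receptor. Tek was at 50.9, 38.5, 21.7, 55.2 and 28.6 CPM in the controls, from 40.2 to 72.3 CPM (median 47.3) in D-3 IR and from 21.9 to 105 CPM (median 60.0) in D+1 IR. Tie1 was at 102, 121, 43.2, 58.0 and 58.8 CPM in the controls, from 66.2 to 172 CPM (median 85.9) in D-3 IR and from 74.1 to 175 CPM (median 92.4) in D+1 IR. Each irradiated library was above the control median for Tie1, while for Tek 7 of 7 D-3 IR and 5 of 7 D+1 IR libraries were. The log2 fold changes of Tie1 were 0.52 (SE 0.30) and 0.45 (SE 0.30), and those of Tek 0.40 (SE 0.31) and 0.59 (SE 0.31), in D-3 IR and D+1 IR against control. Libraries 1, 2 and 3 of D+1 IR averaged 123 CPM of Tie1 and 69.6 CPM of Tek, and the other 4 averaged 90.9 and 50.3 CPM. The ratio of Tie1 to Tek CPM had a median of 1.99 over 19 libraries and ran from 1.05 (control 8) to 4.97 (D+1 IR 20).

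Eng (endoglin) is a co-receptor for BMP and TGF-beta ligands. It was the steadiest of the 10 genes, with a biological coefficient of variation of 0.276. Its controls were at 182, 225, 127, 119 and 214 CPM, against 178 to 269.7 CPM (median 222) in D-3 IR and 173 to 379 CPM (median 194) in D+1 IR. Every irradiated library but D+1 IR 2 lay within 173 to 269.7 CPM, a range that 3 of the 5 controls shared. The log2 fold change was 0.36 in both irradiated groups against control (SE 0.21 each, adjusted p = 1 and 0.644, edgeR). Libraries 1, 2 and 3 of D+1 IR averaged 271 ± 96.3 CPM and the other 4 averaged 186 ± 14.9 CPM, beside a control mean of 174 ± 48.6 CPM.

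Vwf encodes von Willebrand factor, which endothelial cells store and release and which megakaryocytes also make. It was at 127, 122, 87.4, 214 and 181 CPM in the controls, from 136 to 387 CPM (median 242) in D-3 IR and from 50.2 to 271 CPM (median 202) in D+1 IR. All 7 D-3 IR libraries were above the control median, while D+1 IR libraries 3 and 20, at 50.2 and 78.6 CPM, were below every control. Vwf had the largest fitted difference of the 10 genes between D-3 IR and control, 0.67 on the log2 scale (SE 0.39, unadjusted p = 0.0983, adjusted p = 1, edgeR), and an exact two-sided permutation test over libraries gave p = 0.0606 for its difference in mean log2 CPM of 0.65, which was smaller than that of Kdr (0.80). In D+1 IR against control the log2 fold change of Vwf was 0.26 (SE 0.38). Its mean was 126 ± 75.8 CPM in D+1 IR libraries 1, 2 and 3, 212 ± 89.8 CPM in the other 4 and 146 ± 50.5 CPM in the controls. Of 12 platelet and megakaryocyte genes, 10 were tested, and 0 of 10 were above 0 in D-3 IR against control and 1 of 10 in D+1 IR, beside 43.1% and 44.9% of all genes. None was called, as over all genes (0%). In D+1 IR against control 4 of the 10 were lower with an unadjusted p under 0.05 (edgeR), beside 7.11% of all genes in either direction. The summed level of the platelet and megakaryocyte genes was 9.28 to 472 CPM (median 21.3) in the controls. It was 17.1 to 195 CPM (median 27.8) after irradiation at D-3 and 25.4 to 240.2 CPM (median 48.8) after irradiation at D+1. These medians thus lay in the opposite order to the fold changes. The controls varied widely, with a mean of 1.80 ± 3.71 CPM for Tubb1 and 3.97 ± 8.25 CPM for Gp9 (SD, n = 5). Up to 5 of the listed genes were at 0 in a library, and their part in the level of Vwf was not tested.

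Sox17 and Sox18 are SOX-F transcription factors of the endothelium, Sox17 being known for the arterial side. Sox17 was at 16.1, 19.8, 7.08, 13.3 and 8.32 CPM in the controls, from 8.95 to 24.1 CPM (median 16.7) in D-3 IR and from 11.6 to 32.9 CPM (median 17.0) in D+1 IR. Sox18 was at 44.4, 83.6, 20.9, 28.3 and 32.3 CPM in the controls, from 29.1 to 65.7 CPM (median 48.8) in D-3 IR and from 21.9 to 93.2 CPM (median 52.7) in D+1 IR. The groups overlapped over most of their ranges for both genes. The log2 fold changes were 0.39 (SE 0.30) and 0.45 (SE 0.30) for Sox17 and 0.27 (SE 0.36) and 0.25 (SE 0.36) for Sox18, in D-3 IR and D+1 IR against control. Sox18 averaged 60.6 CPM in D+1 IR libraries 1, 2 and 3, 41.7 CPM in the other 4 and 41.9 CPM in the controls. For Sox17 these means were 20.8, 15.4 and 12.9 CPM. Sox18 exceeded Sox17 in each library, by a CPM ratio of 1.84 to 4.37 (median 2.91).

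Erg encodes an ETS transcription factor that maintains endothelial identity and, among other targets, Cdh5. It differed from the other 9 genes in its order over the groups. The controls were at 42.7, 76.5, 122, 46.5 and 57.7 CPM. The D-3 IR libraries ran from 49.1 to 109 CPM (median 76.7), and the 7 D+1 IR libraries were at 46.6, 62.4, 25.8, 45.8, 56.5, 54.8 and 32.9 CPM in the order 1, 2, 3, 17, 18, 19 and 20. All 7 D-3 IR libraries were above the D+1 IR median of 46.6 CPM, and 1 of 7 D+1 IR libraries was above the control median, with all groups overlapping. The means were 46.4 ± 13.1 CPM for D+1 IR, 74.7 ± 21.7 CPM for D-3 IR and 69.2 ± 32.6 CPM for the controls.

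The log2 fold change of Erg was 0.69 (SE 0.25, unadjusted p = 0.0139, adjusted p = 0.409, edgeR) for D-3 IR against D+1 IR. An exact two-sided permutation test over libraries, not adjusted over the 30 such tests, gave p = 0.0128 for it. In the same fit it was -0.58 (SE 0.27, unadjusted p = 0.0488, adjusted p = 0.644) for D+1 IR and 0.11 (SE 0.28) for D-3 IR against control. For D+1 IR against control the exact permutation test gave p = 0.144, and the edgeR value was -0.27 without control 6. By limma voom with sample quality weights, Erg differed between D-3 IR and D+1 IR by 0.75 with an adjusted p of 0.0329, a fit that called 2298 of 17617 genes in that comparison. Smooth muscle genes moved with Erg: the summed level of 16 of them was 8145 to 41909 CPM in the controls, 13889 to 34828 CPM after irradiation at D-3 and 2429 to 22024 CPM after irradiation at D+1, with none of them at 0. Of the 16, 16 were above 0 between the irradiated groups (D-3 IR over D+1 IR) and 0 in D+1 IR against control, with 0 called by edgeR. Over all genes, 45.4% and 44.9% were above 0 in these comparisons and 0% were called. An unadjusted p under 0.05 was found for 14 of the 16 between the irradiated groups, beside 11.5% of all genes, and for 10 of the 16 in D+1 IR against control, beside 7.11%. With their mean level as a covariate, the Erg difference was 0.0039 between the irradiated groups and 0.02 between D+1 IR and control, and the group and the smooth muscle level cannot be told apart in this design.

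**Figure D1:**
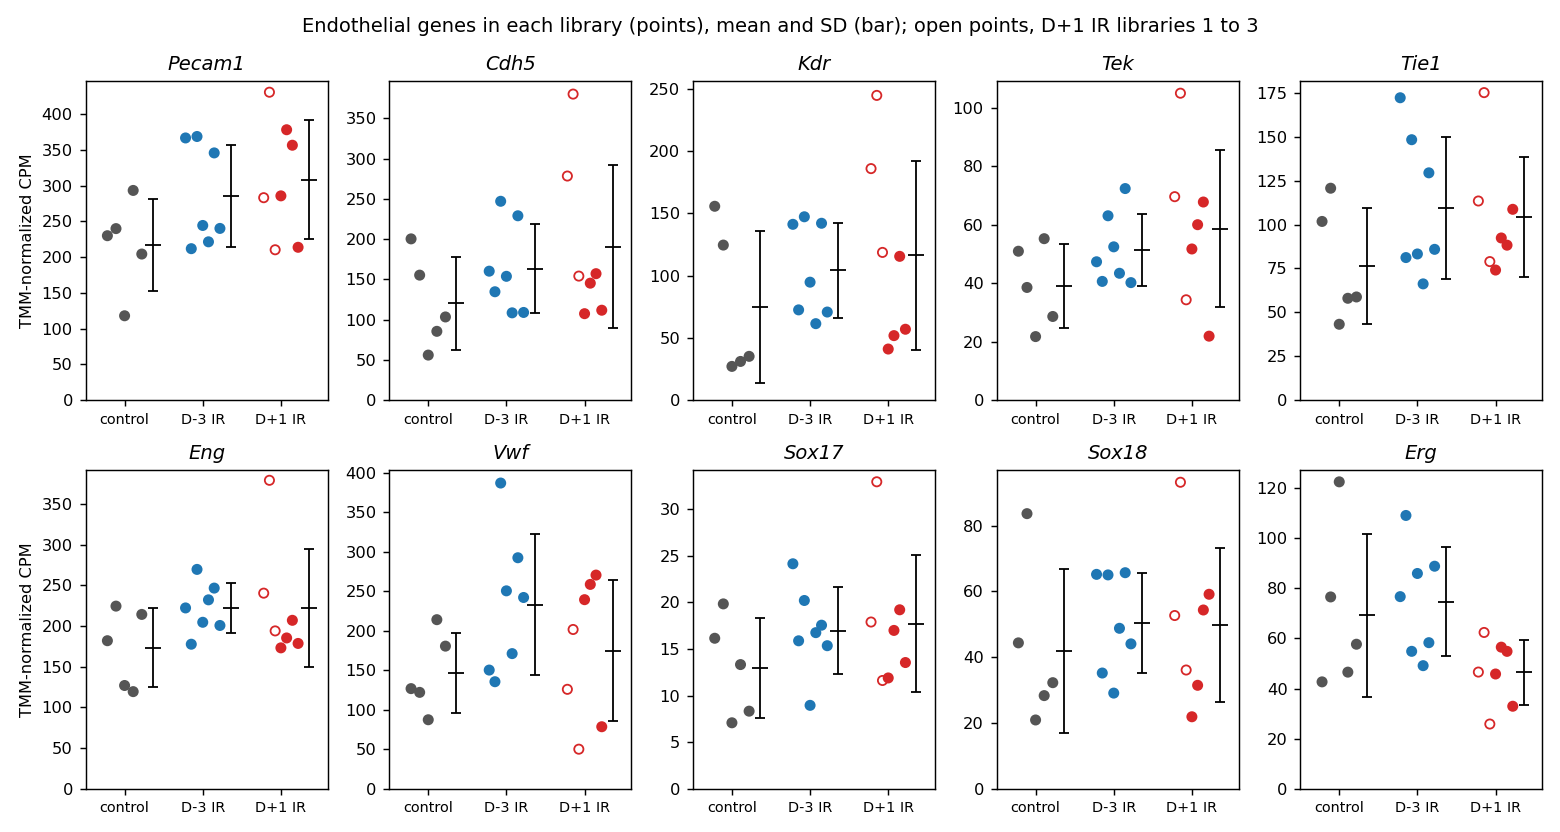
TMM-normalized CPM (linear axes from 0) of each endothelial gene in each library by group, with the mean and SD at the right of each group and D+1 IR libraries 1, 2 and 3 as open points. D+1 IR 2 is the highest library for 8 of the 10 genes, and Erg is highest in control 6 at 122 CPM.

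Read over the 10 genes, D-3 IR lay above control for all 10, with a median log2 fold change of 0.40 and a range from 0.11 (Erg) to 0.67 (Vwf), where 43.1% of the 17617 genes tested were above 0 and their median was -0.03. None passed the adjusted threshold of 0.05 in edgeR, where 0% of all genes did, and 0 of 10 had an unadjusted p under 0.05 beside 1.32% of all genes. DESeq2, limma voom and edgeR's newer quasi-likelihood method called 0 genes in this comparison. Intervals of 2 SE to each side of the log2 fold change reached from -0.53 to 1.49 for Kdr and from -0.07 to 0.78 for Eng. The mean log2 CPM of the 10 genes per library, given as a description, was 6.10 ± 0.44 (SD) for the controls, 6.57 ± 0.30 for D-3 IR and 6.46 ± 0.48 for D+1 IR. The median was 0.26 without control 6, which was the lowest library for 7 of the 10 genes, and 0.58 without control 5. With the mean of 35 other endothelial genes as a covariate it was 0.11.

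Between D+1 IR and control, 9 of the 10 genes were above 0, all but Erg, with a median of 0.45 where 44.9% of all genes were above 0 and their median was -0.04. No gene passed the adjusted threshold in edgeR (0% of all genes), and Pecam1 and Erg, in opposite directions, had an unadjusted p under 0.05 beside 7.11% of all genes. The exact two-sided permutation test gave p from 0.0783 (Pecam1) to 0.818 (Vwf) for the 10 genes. DESeq2 called 2 genes in the whole table here and limma voom and the newer quasi-likelihood method 0, none of them a member. The median was 0.25 without D+1 IR 2, and 0.19 with 8 of 10 above 0 without D+1 IR libraries 1, 2 and 3. With the 35 other endothelial genes as a covariate it was 0.02. The control libraries are shared by these comparisons, so that a low control library raises both sets of values.

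D-3 IR against D+1 IR gave differences on both sides of 0, with 4 of 10 genes above 0, beside 45.4% of all genes, and a median of -0.03 beside -0.04. Erg was the 1 gene of 10 with an unadjusted p under 0.05, where 11.5% of all genes had one, and 0% of all genes were called by edgeR. DESeq2 called 56 genes, limma voom 2298 and the newer method 0, Erg being the 1 member among those of limma voom and no member being among those of DESeq2. This comparison turned on D+1 IR 2, since without it 9 of 10 genes were above 0 with a median of 0.17. That library also had the highest mitochondrial share of counts, 22.9% beside 4.49% to 17.2% in the other libraries, whose part in the values was not tested. Without D+1 IR libraries 1, 2 and 3, 9 of 10 were above 0 with a median of 0.26. In edgeR's test of any difference among the groups 0% of all genes were called and 6.65% had an unadjusted p under 0.05. Erg was the 1 of the 10 genes that had one (adjusted p = 0.726).

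**Figure D2:**
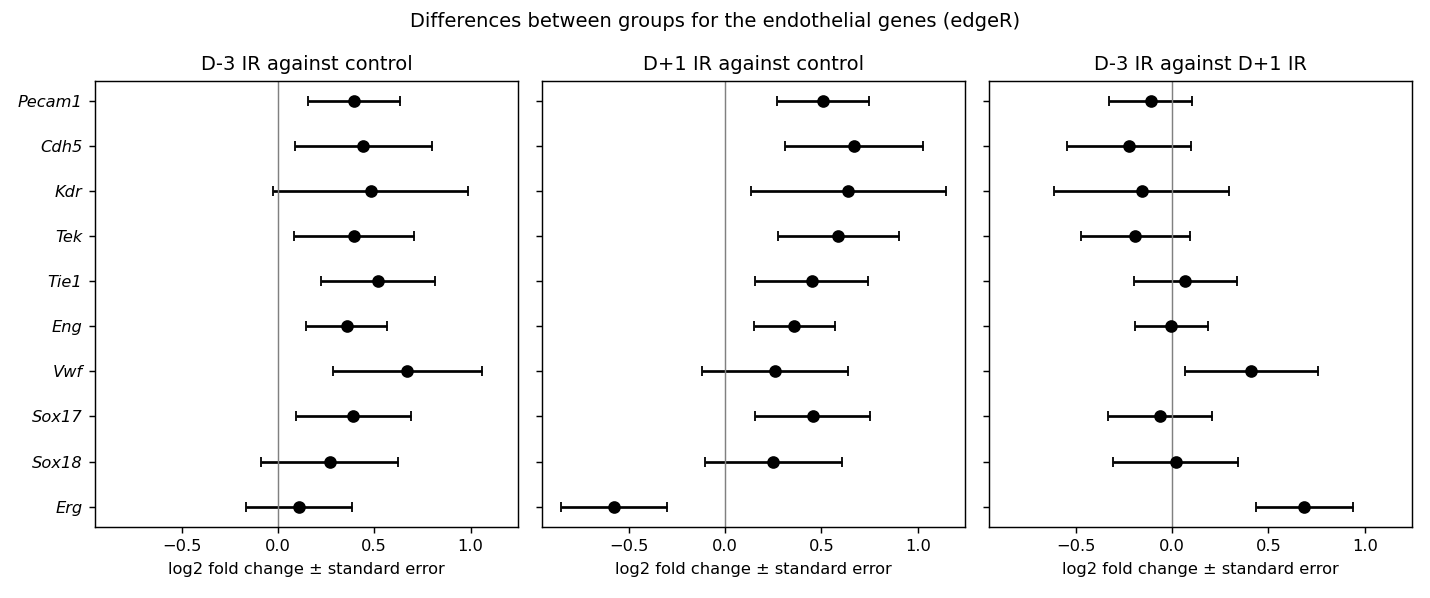
Log2 fold change ± standard error (edgeR) of each endothelial gene, from left to right for D-3 IR over control, D+1 IR over control, and D-3 IR over D+1 IR. Values lie between 0.11 and 0.67 in the left panel, and Erg stands at -0.58 in the middle panel and at 0.69 in the right panel, apart from the other genes.

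Of 35 further endothelial genes, 33 were above 0 in D-3 IR (median 0.34) and 35 in D+1 IR (median 0.48) when set against control, and 8 when D-3 IR was set against D+1 IR (median -0.13), with 0 called in each. Over all genes tested, 43.1%, 44.9% and 45.4% were above 0 in the same order, and 0% were called by edgeR. These shares are the background for the lists that follow too. In D+1 IR libraries 1, 2 and 3 the mean log2 CPM of the 35 genes was 5.39, 5.96 and 4.96. It was 4.59, 4.86, 5.06 and 4.81 in D+1 IR libraries 17, 18, 19 and 20, beside 5.02 ± 0.38 (SD) for D-3 IR. The summed level of the 35 genes was 795 to 1812 CPM in the controls, 1261 to 2441 CPM after irradiation at D-3 and 1292 to 3187 CPM after irradiation at D+1. The smallest p-values among them for D-3 IR against D+1 IR belonged to Palmd, a log2 fold change of -0.85 (SE 0.44), and to Myct1, -0.46 (SE 0.32). Nos3, the endothelial nitric oxide synthase, had a log2 fold change against control of 0.21 (SE 0.23) for D-3 IR and 0.43 (SE 0.23) for D+1 IR.

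Among ligands and receptors of the VEGF family other than Kdr, 0 of 9 genes were called, with medians against control of 0.24 for D-3 IR and 0.47 for D+1 IR, and of -0.16 between the irradiated groups. Vegfd, a ligand of the VEGF family, had means of 28.6 CPM for D+1 IR, 53.5 CPM for D-3 IR and 49.5 CPM for the controls, with a log2 fold change of 0.90 (SE 0.27, adjusted p = 0.409, edgeR) for D-3 IR against D+1 IR. Vegfa and Vegfb lay the other way, at -0.56 (SE 0.35) and -0.42 (SE 0.29) on the log2 scale. Nrp1, a co-receptor, had 0.71 (SE 0.32, unadjusted p = 0.0400) in D+1 IR against control. In D+1 IR the means of Kdr, Nrp1, Vegfa and Vegfb were above control and that of Vegfd below it, none of them past the adjusted threshold. Without D+1 IR libraries 1, 2 and 3 the Kdr mean of the other 4 was 66.3 CPM, beside 74.6 CPM in the controls. Which of these ligands act on Kdr in these aortas was not tested.

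Among 8 angiopoietins and regulators of the TIE receptors, 0 were called and the medians were 0.05 and 0.08 against control and 0.04 between the irradiated groups. Angpt4, an angiopoietin that binds TIE2, had means of 7.55 CPM for D+1 IR, 16.8 CPM for D-3 IR and 19.0 CPM for the controls, with a log2 fold change of 1.16 (SE 0.37, unadjusted p = 0.00600, adjusted p = 0.409, edgeR) for D-3 IR against D+1 IR. Angptl1 at -1.55 (SE 0.78) and Angpt1 at -0.49 (SE 0.35) lay the other way. Foxo1, a transcription factor under the control of TIE2 signalling, was close to even at 0.19 (SE 0.14).

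Around Eng, 18 of 20 genes of the BMP9, ALK1 and SMAD pathway were tested and 0 called, with 12 of 18 above 0 in D-3 IR against D+1 IR (median 0.15), beside 45.4% of all genes. Smad6 (0.85, SE 0.32), Smad9 (1.12, SE 0.44), Id2 (0.79, SE 0.31) and Id3 (0.61, SE 0.27), inhibitors, a mediator and targets of BMP signalling, were above 0 with adjusted p from 0.409 to 0.426. Eng itself was at -0.00 (SE 0.19) in that comparison. Of the junction genes around Pecam1 and Cdh5, 0 of 18 were called, and Magi1, a scaffold protein, had the smallest p (log2 fold change 0.57, SE 0.15, adjusted p = 0.409).

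Of 24 endothelial transcription factors other than Sox17, Sox18 and Erg, 23 were tested and 0 called, with 15 above 0 in D-3 IR against D+1 IR (median 0.05), beside 45.4% of all genes. Heyl, a target of Notch, had 1.22 (SE 0.40), Mef2c 0.74 (SE 0.24), Nr2f2, which is known for veins, 0.46 (SE 0.16), and Hey2 0.87 (SE 0.35). Of the 20 arterial genes, Fbln5 and the connexin gene Gja4 had 1.49 (SE 0.43) and 0.96 (SE 0.33), and 11 of 20 were above 0 (median 0.04). Smooth muscle genes lay above 0 in the same comparison in 16 of 16 cases (median 1.14), and their part in the values of Heyl, Hey2, Fbln5 and Gja4 was not tested. Capillary genes lay on the other side, with 2 of 13 above 0 (median -0.25), Cd36 at -0.66 (SE 0.48) and Cd300lg at -0.65 (SE 0.49). White adipocyte genes (0 of 14 above 0, median -0.74) and brown adipocyte genes (1 of 12, median -1.04) lay on the same side, and Cd36 and Fabp4 of the capillary list are also known from adipocytes. The part of adipocytes in the capillary values was not tested. In D+1 IR libraries 1, 2 and 3 the mean log2 CPM of the capillary genes was 7.03, 7.69 and 6.61. It was 5.05, 6.03, 6.56 and 5.61 in D+1 IR libraries 17, 18, 19 and 20, beside 6.25 ± 0.28 (SD) for D-3 IR. The fold changes of the lists are not given without D+1 IR libraries 1, 2 and 3. Venous genes (5 of 10 above 0, median 0.01), lymphatic genes (6 of 10, median 0.18) and genes of secretion and activation (9 of 14, median 0.14) had 0 called in the same comparison.

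Over the 19 libraries the 10 genes did not vary as 1 group. Pearson's r of log2 CPM over the 45 pairs had a median of 0.63 and ran from -0.22 to 0.92, and 29 pairs by r and 24 by Spearman's rho had a permutation p under 0.05 after Benjamini-Hochberg adjustment over the 45. Pecam1, Cdh5, Kdr, Tek, Tie1, Eng, Sox17 and Sox18 formed 28 pairs with r from 0.40 to 0.92 (median 0.74), a set picked out after the values were seen and given as a description. Without D+1 IR libraries 1, 2 and 3 the 28 values ran from 0.20 to 0.90, and without the 2 libraries farthest from the median of the first gene of each pair from 0.20 to 0.89. Points share the make-up of the dissected tissue, so that a varying number of the same cells and a shared change within cells cannot be told apart.

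The closest pair was Cdh5 and Kdr, with r of 0.92 and rho of 0.97 (n = 19, adjusted permutation p = 0.000112 and 0.00015), 0.90 without D+1 IR libraries 1, 2 and 3 and 0.89 without the 2 farthest libraries. Pecam1 and Tek followed with r of 0.85 and rho of 0.84, and Kdr and Tie1 with r of 0.84 and rho of 0.82. Among the pairs of these 8 genes the lowest was Tek with Sox18, at r of 0.40. Erg had r from -0.22 (Cdh5) to 0.26 (Vwf) with the other 9 genes, and none of the 9 passed the threshold by either measure. When D+1 IR libraries 1, 2 and 3 were left out, the 9 values ran from -0.38 (Pecam1) to -0.04 (Kdr), that with Vwf turning to -0.10. Vwf had r of 0.64 with Pecam1 and 0.63 with Tek, and 0.06 with Kdr and 0.09 with Sox18. Its r was 0.72 with Pecam1, 0.82 with Tek, 0.48 with Cdh5 (0.25 over all libraries), 0.26 with Kdr and 0.03 with Sox18 when D+1 IR libraries 1, 2 and 3 were left out.

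**Figure D3:**
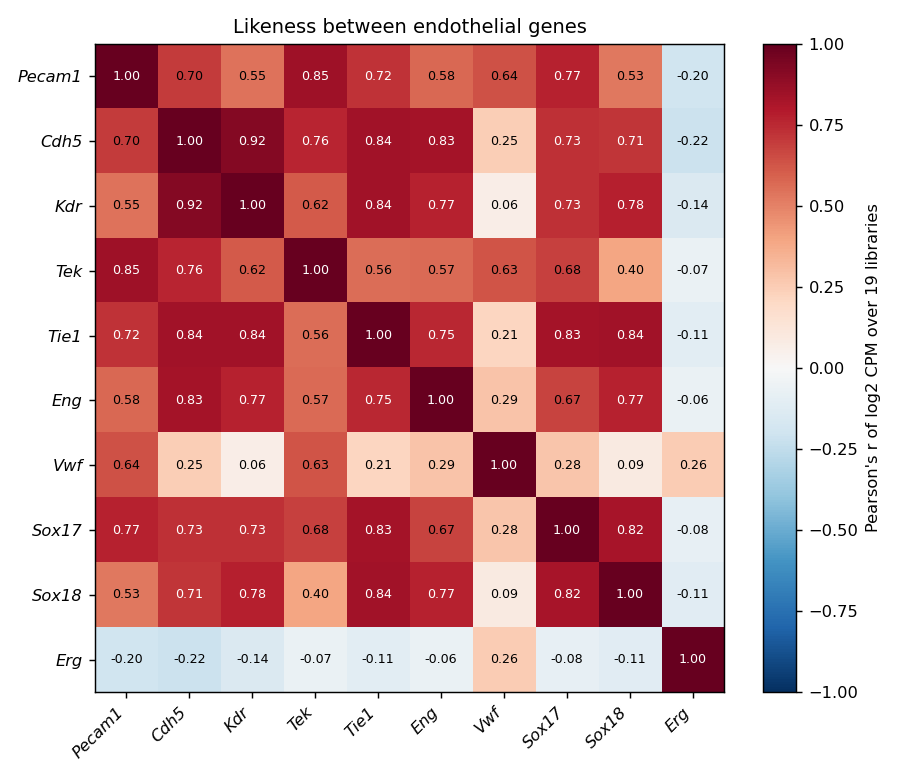
Pearson's r of log2 CPM over 19 libraries for each pair of endothelial genes, from blue (-1) through white (0) to red (1), the value written in each cell. The row of Erg stays between -0.22 and 0.26, and that of Vwf between 0.06 and 0.64.

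Each gene was also set against the mean level of 23 lists of marker and pathway genes, 230 relations in all, with the 10 genes taken out of the lists. The wider endothelial genes had the highest r of all lists for Tie1 (0.94), Cdh5 (0.93), Sox17 (0.87), Sox18 (0.85), Eng (0.84) and Pecam1 (0.76), and Kdr had 0.92 with them (adjusted permutation p from 0.00023 to 0.0025, rho from 0.60 to 0.95). By rho, Pecam1 was closer to the junction genes (0.75) than to the wider endothelial genes (0.60). Eng was closer to the VEGF genes by rho (0.80 against 0.76). Without D+1 IR libraries 1, 2 and 3 it was so by r as well (0.86 against 0.76). Kdr was most like the capillary genes, with r of 0.94 and rho of 0.93 (n = 19, adjusted permutation p = 0.00023), 0.92 without D+1 IR libraries 1, 2 and 3 and 0.93 without the 2 farthest libraries. Tek was most like the junction genes (r 0.89, rho 0.81). White adipocyte genes had r of 0.79 with Cdh5 and 0.72 with Kdr, both past the threshold by r and rho, and none of the 14 was at 0 in any library. Their summed level was 839 to 12362 CPM in the controls, 4476 to 12033 CPM after irradiation at D-3 and 3860 to 22299 CPM after irradiation at D+1. With white and brown adipocyte genes as covariates, the log2 fold change of Kdr was -0.01 in D+1 IR against control and 0.49 between the irradiated groups.

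Vwf was most like the arterial genes, with r of 0.83 and rho of 0.67 (n = 19, adjusted permutation p = 0.000354 and 0.0151), 0.75 without D+1 IR libraries 1, 2 and 3 and 0.64 without the 2 farthest libraries. Fibroblast genes came next by r (r 0.75, rho 0.63), followed by endothelial transcription factors (r 0.73), which were ahead of them by rho (0.66). With the wider endothelial genes Vwf had r of 0.20. Without D+1 IR libraries 1, 2 and 3 its r was 0.66 with junction genes, 0.65 with fibroblast genes and 0.63 with endothelial transcription factors. With the wider endothelial genes it was then 0.35. Named after their values were seen, the genes most like Vwf were Enpp6 and Tmem158 (r 0.91 each), and of the arterial genes Bmx (0.83) and Gja5 (0.82). The CPM ratio of Kdr to Vwf ran from 0.145 (control 8) to 2.36 (D+1 IR 3).

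Erg was most like the smooth muscle genes (r 0.87, rho 0.77, adjusted permutation p = 0.00023 and 0.00307) and the pericyte genes (r 0.87, rho 0.87, adjusted permutation p = 0.00023 and 0.000288). Without D+1 IR libraries 1, 2 and 3 these were 0.86 and 0.84, and without the 2 libraries farthest from the median of Erg 0.79 and 0.78. With the wider endothelial genes Erg had r of -0.21 (adjusted permutation p = 0.689). The genes most like it, named after their values were seen, were Cavin1 (r 0.96), Lzts2 (0.95), Arhgef7 (0.93) and Kank2 (0.93), and the closest smooth muscle gene was Mylk (0.91), the kinase of the myosin light chain. Control 6, with the highest level of Erg, also had the highest summed smooth muscle level at 41909 CPM and the lowest Cdh5, Kdr, Tek and Tie1.

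Erg also had r of 0.73 (rho 0.62) with the BMP9, ALK1 and SMAD genes, 0.70 (rho 0.69) with erythroid genes and -0.63 (rho -0.68) with neuron and adrenal medulla genes, each past the adjusted threshold. The erythroid genes' summed level was 151 to 7171 CPM in the controls, 703 to 10707 CPM after irradiation at D-3 and 289 to 1702 CPM after irradiation at D+1. The summed level of the neuron and adrenal medulla genes was 148 to 7691, 121 to 1754 and 28.6 to 6282 CPM in the same order. Their part in the level of Erg was not tested. The CPM ratio of Cdh5 to Erg ran from 0.457 (control 6) to 6.10 (D+1 IR 2), with a median of 3.39 for D+1 IR, 2.09 for D-3 IR and 1.84 for the controls. Which cells of these aortas held the Erg transcripts was not measured.

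**Figure D4:**
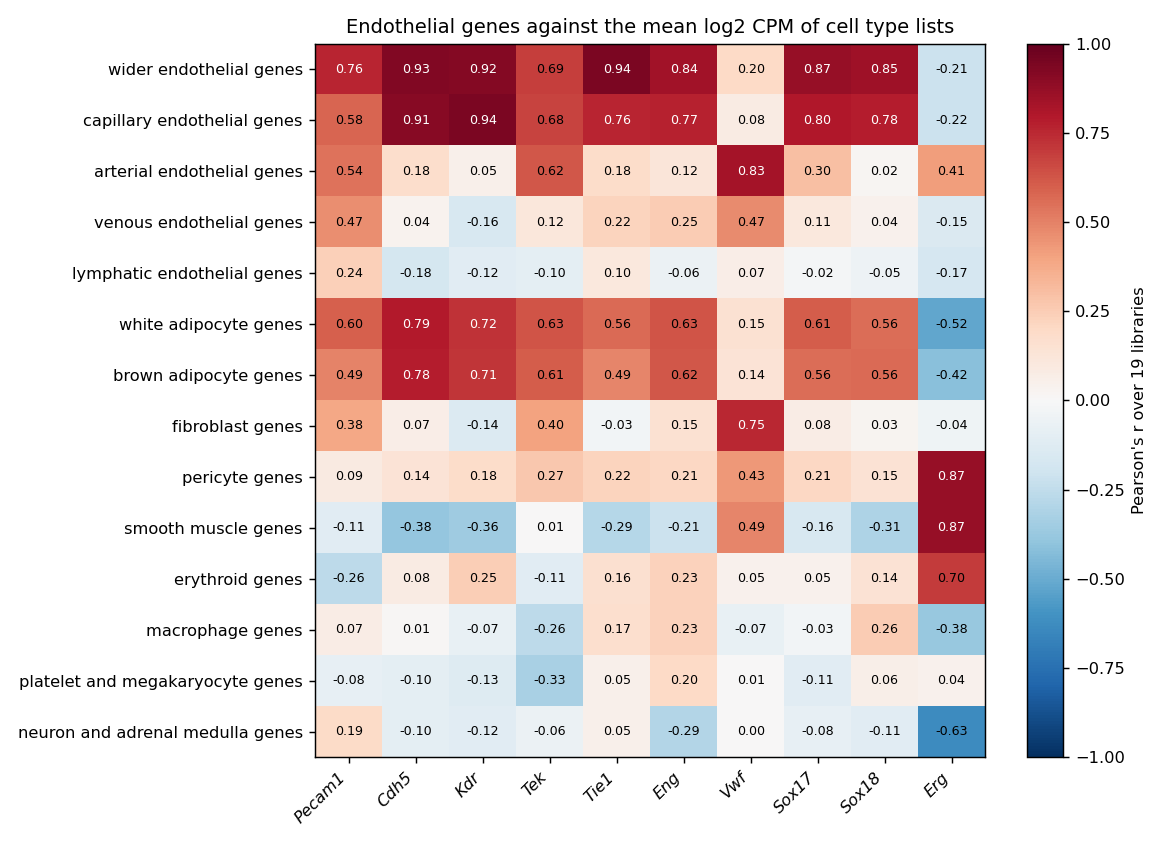
Pearson's r over 19 libraries of each endothelial gene with the mean log2 CPM of 14 of the 23 lists, on the same color scale as the pairs. Most genes are red in the rows of wider and capillary endothelial genes, Vwf in the rows of arterial (0.83) and fibroblast genes (0.75), and Erg in the rows of pericyte and smooth muscle genes (0.87 each).

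**Figure D5:**
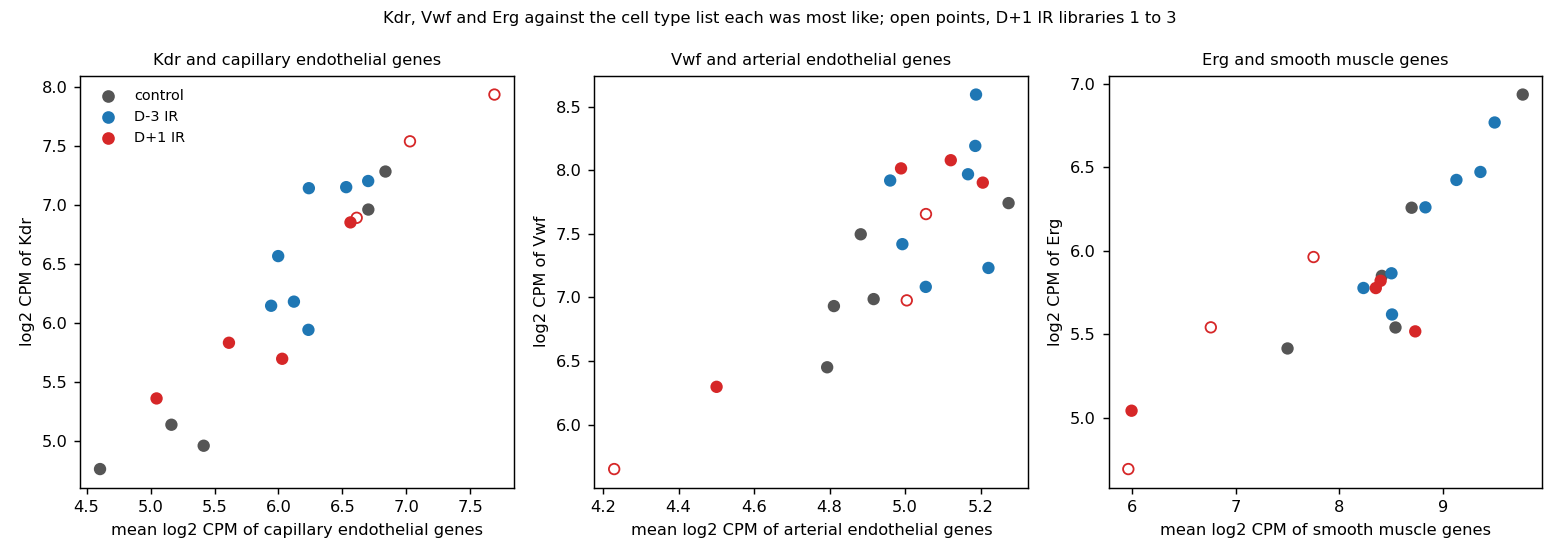
Log2 CPM of Kdr, Vwf and Erg in each library against the mean log2 CPM of the list each was most like, colored by group, with D+1 IR libraries 1, 2 and 3 as open points. The libraries of the 3 groups lie along a common band in each panel, with r of 0.94, 0.83 and 0.87.

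The genes whose pattern was most like that of all 10 together, by the highest mean r with them over 19 libraries, were Mmrn2 (mean r 0.67), She (0.67), Afap1l1 (0.67), Podxl (0.66), Sox7 (0.66), Card10 (0.65), Adgrf5 (0.65), Ccm2l (0.65), Cdh23 (0.64) and Zfp366 (0.64). Of these, Mmrn2, She, Podxl, Sox7 and Adgrf5 were on the list of wider endothelial genes. Each of the 10 had at least 1 r below 0 with a member, down to -0.23 for Afap1l1. Without D+1 IR libraries 1, 2 and 3 the mean r of the 10 genes ran from 0.59 (Cdh23) to 0.64 (Card10).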

How the data were processed

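RNA was measured in 19 libraries, each from the abdominal aorta of 1 mouse. Per the labels and the study's methods, polyA-selected RNA was made into libraries with a stranded kit, and the authors checked reads with FastQC and aligned them to Ensembl GRCm38 with STAR 2.7.9a. The annotation release was not given in the sources used here. The deposited values are raw counts per gene. The unstranded counts were used, since the second strand held 49.9% to 50.1% of the counts on both strands. All 773262 values of the deposited joined table equal them, and 0 columns were left unmapped. The libraries held 25839001 to 97083681 counts in genes, 67.5% to 78.0% of their reads.

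edgeR 4.0.16 in R 4.3.3 was fitted to the counts of all libraries with TMM factors, filterByExpr at its defaults (17617 genes kept), 3 groups without intercept and the older quasi-likelihood F-test, two-sided, with Benjamini-Hochberg adjustment at 0.05 over all genes. Log2 CPM used a prior count of 2. Exon lengths and positions came from GENCODE M21. Alternatives were DESeq2 1.42.0, limma 3.58.1 voom with sample quality weights, the newer quasi-likelihood method, RLE factors, no filter, the genes of the joined table, the groups compared only, covariates, and leaving out libraries. The permutation p-values of correlations (100000 permutations, the smallest possible being 1e-05) and the values without the 2 farthest libraries were added after the data were seen. The permutations shuffled all 19 libraries without regard to group, so that differences between groups enter r and its p. The plan had set no test for these correlations, since the libraries share tissue composition. The code was tested on simulated data.

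The 10 genes and all lists were chosen with earlier results of these data known. Named were the 10 genes, up to 4 genes per list with the smallest p for D-3 IR against D+1 IR, and the 10 genes with the highest mean r with the members. Other genes were chosen after their values were seen. No pair of libraries of a group agreed within sampling noise (lowest chi-square per degree of freedom 55.8).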

Additional observations from a re-analysis of the deposited data

Results flagged for a closer look

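Library D+1 IR 2 stood apart from the other 6 libraries of its group in 3 genes. It held 175.2 CPM of Tie1, where the next highest D+1 IR library held 113 CPM. It held 379.3 CPM of Eng, with the next at 241 CPM, and 32.91 CPM of Sox17, with the next at 19.2 CPM. In each case the gap took more of the range of the group (0.611, 0.674 and 0.644) than Dixon's 95% value of 0.568 for 7 libraries. Of 30 groups looked at, 10 genes in 3 groups, chance alone would be given about 1 in 20, and the 3 genes come from 1 library and vary together, so they are not independent. The summed wider endothelial level of the same library, 3187 CPM, and its capillary level, 17275 CPM, were also the highest of all libraries, and its TMM factor of 0.800 was the lowest. Its summed white adipocyte level of 22299 CPM, its mitochondrial share of 22.9% of counts (median of all libraries 11.0%) and its multimapping share of 15.1% of reads were the highest of all libraries too. Their part in the values of the 3 genes was not tested.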

How the results depend on the processing

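The count of called members stayed at 0 in all comparisons under each alternative run, except for 1 (Erg) in D-3 IR against D+1 IR by limma voom. Over all genes, DESeq2 called 2 in D+1 IR against control, 56 between the irradiated groups and 23 in any difference, limma voom 2298 between the irradiated groups and the newer quasi-likelihood method 1 in any difference. Leaving out each library in turn gave 0 to 0 called genes in each comparison. The median of the members then ran from 0.263 (without control 6) to 0.577 (without control 5) in D-3 IR against control, from 0.254 (without D+1 IR 2) to 0.622 (without control 5) in D+1 IR against control, and from -0.122 (without D-3 IR 10) to 0.168 (without D+1 IR 2) between the irradiated groups. With the wider endothelial genes as a covariate the median of D+1 IR against control was 0.0223. Values of single members whose sign turned were as follows, and none had an adjusted p under 0.05. For Sox18, D-3 IR against control was -0.000427 by limma voom and -0.11 with the endothelial covariate, and D+1 IR against control was -0.26, -0.0343 and -0.10 with the endothelial, smooth muscle and adipocyte covariates. Between the irradiated groups it was -0.00669 with RLE factors, -0.00675 by DESeq2 and -0.18 by limma voom for Sox18, and -0.13 by limma voom for Tie1. For Kdr, D+1 IR against control was -0.17 without D+1 IR libraries 1, 2 and 3, -0.12 with the endothelial covariate and -0.00556 with the adipocyte covariates. For Erg it was 0.0221 with the smooth muscle covariate. D-3 IR against D+1 IR without D+1 IR libraries 1, 2 and 3 was 0.32 for Cdh5, 0.65 for Kdr, 0.0322 for Tek, 0.25 for Eng and 0.14 for Sox17. It was 0.14 for Kdr, 0.0853 for Eng and 0.0564 for Sox17 with the endothelial covariate, and 0.16 for Cdh5, 0.49 for Kdr and 0.11 for Eng with the smooth muscle covariate. With the adipocyte covariates it was 0.18 for Cdh5, 0.49 for Kdr, 0.0429 for Tek, 0.17 for Eng and 0.16 for Sox17, and as a mean difference of log2 CPM 0.0319 for Kdr and 0.0363 for Eng. The cause was not tested. Leaving out 1 library turned the sign of 3, 0 and 18 of 190 member values in these comparisons. Erg then ran from -0.0221 to 0.42 in D-3 IR against control. Between the irradiated groups the ranges were -0.35 to 0.0368 (Cdh5), -0.31 to 0.13 (Kdr), -0.33 to 0.0128 (Tek), -0.0770 to 0.24 (Tie1), -0.0561 to 0.18 (Eng), -0.17 to 0.16 (Sox17) and -0.11 to 0.24 (Sox18), the highest each time without D+1 IR 2. No paired analysis was possible because the groups share no replicate number.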
